A study of Mus musculus with 6 samples.

Results

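Hyaluronan is a long, unsulfated polysaccharide of the extracellular matrix, and 10 mouse genes that make it, cut it or bind it were followed in cultured skin cells kept in normal or high glucose. The genes were taken by name from a list: the synthases Has1, Has2 and Has3, the depolymerizing enzymes and related proteins Hyal1, Hyal2, Cemip and Tmem2 (annotated as Cemip2), and the binding proteins Cd44, Vcan and Tnfaip6. All 10 were found among the 55487 gene identifiers of the count table, and all 10 passed the filter on low counts that kept 19015 genes. The cells were CD31-enriched primary cells from the skin of C57BL/6 mice aged 2 to 3 months, with the skin of 4 to 6 mice used for an isolation, and were used between passages 1 and 6. They were kept for 48 hours in medium with 5 mmol/L glucose (normal glucose, n = 3) or 20 mmol/L glucose (high glucose, n = 3), with no other treatment named, and poly(A) RNA was sequenced in bulk. The paper's legends count the replicates as mice, while its methods pool the skin of several mice, and neither they nor the labels say whether the 3 samples of a group came from separate isolations. The P values measure the spread between these samples, which is technical in part if they shared one.

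Hyaluronan synthases sit in the plasma membrane, join UDP-glucuronic acid and UDP-N-acetylglucosamine in the cytosol and push the growing chain out of the cell. Outside, versican and other proteoglycans attach to the chain, and TSG-6 (the product of Tnfaip6) transfers protein chains onto it, while CD44 holds it at the cell surface. Hyaluronidases and the CEMIP and TMEM2 proteins take part in its breakdown. The dermis is rich in hyaluronan made largely by fibroblasts, and ECs carry it in their glycocalyx.

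The deposited values were whole-number read counts per gene without normalization, and total counts per sample lay between 120192466 and 146881356. Levels are given as TMM-normalized CPM, which are counts scaled to a common library size. Differences are given as the log2 fold change of high over normal glucose, with its standard error (SE). They come from the quasi-likelihood test of edgeR, fitted over all tested genes and called where the Benjamini-Hochberg adjusted P value was under 0.05. The samples were labelled as ECs, but some defining EC markers were nearly absent. Pecam1, which encodes the CD31 used for enrichment, had 9 to 19 counts per sample, and Tie1 had at most 2. The most abundant genes of the 12-gene EC list were Flt1, at 55.3 and 38.4 CPM in normal and high glucose, and Egfl7, at 11.1 and 9.44 CPM. Kdr, which encodes VEGFR2, stood at 4.96 and 5.50 CPM and was not called, and Cdh5 at 1.80 and 0.876 CPM. Of that list, 9 genes were tested, 2 rose (Tek and Erg) and 3 fell (Flt1, Cdh5 and Egfl7). The background for this and the following lists is 16.9% called higher and 14.5% called lower over all tested genes. The Erg call, on 2 to 15 counts per sample, was lost in 10 of 14 alternative settings, among them every fit with 1 sample left out except that without normal glucose replicate 2 (adjusted P between 0.0865 and 0.139). The Egfl7 call was lost in 5, among them the fits without normal glucose replicate 3 or any high glucose replicate (0.0627 to 0.0980). The list's summed level went from between 73.8 and 77.0 CPM to between 57.0 and 57.6 CPM. All 12 genes of a fibroblast list were tested, 10 rose and 1 fell, and its summed level went from between 39314 and 42530 CPM to between 71949 and 76823 CPM, led by Col3a1 and Col1a2. The smooth muscle and pericyte list (8 genes, all tested) had 1 gene higher and 5 lower, with a summed level of 634 to 709 CPM in normal and 533 to 560 CPM in high glucose, led by Acta2 and Tagln. The fall of Des in this list was not called without high glucose replicate 1 (adjusted P = 0.0518). The macrophage list (8 genes, 4 tested) had 1 gene higher and 2 lower. Its sum of 17.3 to 19.4 CPM in normal and 26.8 to 27.7 CPM in high glucose followed Cd14, which rose from 9.47 to 21.1 CPM, while Csf1r fell from 5.62 to 3.38 CPM. The other fall, of Cd68, was lost in 6 of 14 settings, among them the fits without replicate 2 or 3 of either group (adjusted P between 0.0867 and 0.150). Tyrobp was at 0 in every sample and Adgre1 at no more than 3 counts. The keratinocyte list (8 genes, 4 tested) had Krt5 higher, on 2 counts per normal and 12 to 23 per high glucose sample, with summed levels of 4.23 to 5.13 and 4.70 to 5.13 CPM and with Krt1 and Cdh1 at no more than 3 counts. Without normal glucose replicate 2, Trp63 was called higher as well (adjusted P = 0.0369). Of 6 lymphatic EC identifiers 3 were tested and 1 was called, Pdpn, which fell from 365 to 230 CPM and made up nearly all of the summed level of 370 to 375 and then 232 to 241 CPM. Flt4 stood at 6.40 and 7.48 CPM (adjusted P = 0.0747), Lyve1 at 0 to 14 counts per sample and both Ccl21a identifiers at 0. The part of these cell type markers in the results below was not tested, and in bulk RNA fewer cells of a type cannot be told apart from less RNA per cell.

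In high glucose, 4 of the 10 hyaluronan genes rose and 2 fell. Has2, the synthase gene with the most counts, rose 1.97-fold, Vcan 1.81-fold, Tnfaip6 1.39-fold and Tmem2 1.14-fold, while Has1 fell to 0.682 and Cd44 to 0.732 of the normal glucose level. Has3, Hyal1, Hyal2 and Cemip did not pass the threshold. Over all tested genes 16.9% were called higher and 14.5% lower, 31.4% in all. The share of members called lay above that background, with 10 genes to count. The members were chosen with earlier results of these samples known, so no conclusion is drawn from that excess. The median log2 fold change was 0.14 over the members and 0.0062 over all tested genes. The groups did not overlap for 6 of the 10 members, against 46.4% of all tested genes. No member showed a log2 difference of 1 or more in either direction, a range that held 2.08% of tested genes on the higher side and 2.85% on the lower side among those called. As the 10 panels of values by sample show, the genes differ in abundance by more than their groups do.

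**Figure D1:**
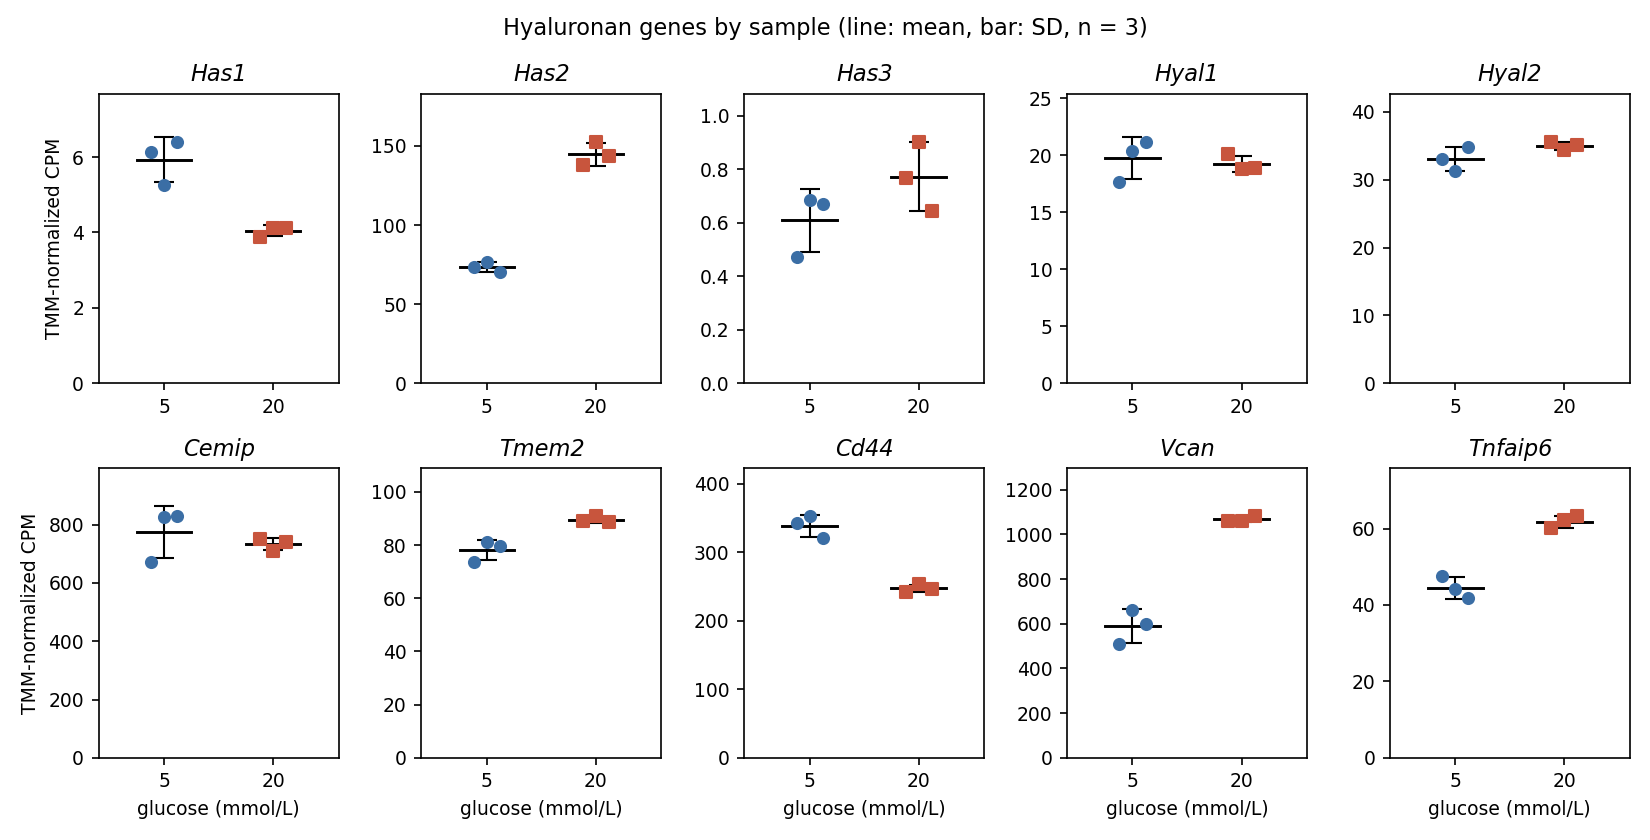
TMM-normalized CPM (vertical axes, each from 0) of the 10 hyaluronan genes in 3 samples at 5 mmol/L glucose (circles) and 3 at 20 mmol/L glucose (squares), with the mean as a line and the SD as a bar. The high glucose samples all lie above the normal glucose samples for Has2, Tmem2, Vcan and Tnfaip6 and all below them for Has1 and Cd44, and the groups overlap for Has3, Hyal1, Hyal2 and Cemip.

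Promoter sequences from RefSeq (GRCm38.p6) were matched by symbol for 7 of the 10 genes. Those of Vcan and Tnfaip6, which rose, and of Cd44 and Has1, which fell, are shown so that genes that moved in opposite directions can be read side by side. Each line holds the 250 bases before the RefSeq start of transcription, 5′ to 3′ on the strand of the gene. RefSeq starts can differ from the outermost starts of the GENCODE genes whose positions are given below, so that 104 bases of the Tnfaip6 window and 17 of the Has1 window lie inside the GENCODE gene. Capitals mark matches on either strand to a TATA box (TATAAA), a GC box (GGGCGG), an AP-1 site (TGANTCA), an NF-kB site (GGG, any 5 bases, CC) or an E-box (CACGTG).
Vcan, chr13:89742513-89742762, minus strand: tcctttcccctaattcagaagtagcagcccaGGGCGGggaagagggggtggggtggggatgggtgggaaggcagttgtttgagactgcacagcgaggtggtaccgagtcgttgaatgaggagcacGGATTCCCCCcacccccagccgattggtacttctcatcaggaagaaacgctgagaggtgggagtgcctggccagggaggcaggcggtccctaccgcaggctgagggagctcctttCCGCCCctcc
Tnfaip6, chr2:52037863-52038112, plus strand: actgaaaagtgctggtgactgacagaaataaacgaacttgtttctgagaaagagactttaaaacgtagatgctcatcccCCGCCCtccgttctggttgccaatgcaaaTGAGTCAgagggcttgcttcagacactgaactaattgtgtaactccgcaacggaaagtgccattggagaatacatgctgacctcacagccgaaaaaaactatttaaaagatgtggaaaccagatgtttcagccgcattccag
Cd44, chr2:102901666-102901915, minus strand: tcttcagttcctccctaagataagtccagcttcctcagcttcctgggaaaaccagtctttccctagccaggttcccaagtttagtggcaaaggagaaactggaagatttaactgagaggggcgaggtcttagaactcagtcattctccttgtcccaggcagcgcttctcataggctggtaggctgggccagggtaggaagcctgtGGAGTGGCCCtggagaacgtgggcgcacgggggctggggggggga
Has1, chr17:17855189-17855438, minus strand: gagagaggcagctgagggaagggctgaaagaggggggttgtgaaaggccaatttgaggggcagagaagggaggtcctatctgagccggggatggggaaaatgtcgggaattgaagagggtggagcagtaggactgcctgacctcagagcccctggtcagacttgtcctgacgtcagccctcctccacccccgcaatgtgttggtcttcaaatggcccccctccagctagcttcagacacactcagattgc

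The Tnfaip6 window held an AP-1 match that begins 142 bases before the RefSeq start (52038113), and 6.75% of 32851 promoter windows of this length held such a match. Tnfaip6 and Vcan windows each held a GC box match (32.7% of windows), which the Cd44 and Has1 windows did not. GC box matches also stood in the windows of Hyal1, Hyal2 and Cemip, which were not called. No window was found for Has2, Has3 or Tmem2, so the match is not tied to the direction of change. NF-kB matches stood in the Vcan and Cd44 windows and in 45.8% of all windows. TATA box and E-box matches, in 12.4% and 6.02% of all windows, were in none of these 4 windows. GC content was 62.4% for Vcan, 44.4% for Tnfaip6, 56.4% for Cd44 and 58% for Has1, against a median of 52.4%. The NF-kB letters can overlap a GC box match, which did not occur in these 4 windows. A match describes the letters only, and the deposited data hold no measurement of binding.

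Of the synthases, Has2 rose and Has1 fell. Has2 (ENSMUSG00000022367, chromosome 15 of GRCm38, 56665627 to 56694539, minus strand) encodes the synthase that is needed for embryonic heart development and makes long hyaluronan chains. It stood at 73.7, 76.7 and 70.6 CPM in normal glucose and at 138, 153 and 144 CPM in high glucose, from between 9044 and 19615 counts. The lowest high glucose sample was well above the highest normal glucose sample, and the spread within each group was small beside the gap. The mean rose from 73.7 ± 3.03 to 145 ± 7.26 CPM (SD, n = 3), or by 0.98 on the log2 scale (95% interval 0.85 to 1.10, SE 0.058, edgeR adjusted P = 9.56e-07). Of the 3212 genes called higher, 415 rose by more than Has2. By level per exon length, Has2 moved from rank 2809 to rank 1439 of 18994 tested genes with an annotated length.

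Has2os, a noncoding gene on the opposite strand, shares 182 exonic bases with Has2, or 4.30% of the Has2 exons, and no source says whether the counting used strand. Counts of Has2os were 94, 121 and 52 in normal and 154, 131 and 185 in high glucose, far below the counts of Has2. Its log2 fold change was 0.83 (SE 0.24, edgeR adjusted P = 0.0229). The Has2os call was lost in 3 of the 14 alternative settings, among them the fits without high glucose replicate 2 (0.86, adjusted P = 0.0538) and without high glucose replicate 3 (0.70, adjusted P = 0.0958). If strand was not used, reads of the 2 transcripts in the shared bases cannot be told apart.

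Has1 (ENSMUSG00000003665, chromosome 17, 17843323 to 17855205, minus strand) encodes a synthase that is induced by inflammatory signals in fibroblasts. Its values were 6.13, 5.26 and 6.40 CPM in normal glucose and 3.87, 4.13 and 4.13 CPM in high glucose. The groups did not overlap, and the lowest normal glucose sample, replicate 2, was the nearest to the high glucose samples. Has1 fell from 5.93 ± 0.597 to 4.04 ± 0.148 CPM (SD, n = 3), a log2 difference of -0.55 (95% interval -0.77 to -0.34, SE 0.097, edgeR adjusted P = 0.00163). A larger fall was seen for 1242 of the 2757 genes called lower.

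Has3 (ENSMUSG00000031910, chromosome 8, 106870242 to 106884566, plus strand) encodes the remaining synthase and had the fewest counts of the 10 genes, 59 to 109 per sample. It had 0.471, 0.684 and 0.672 CPM in normal glucose and 0.768, 0.903 and 0.646 CPM in high glucose, and the groups overlapped. The log2 fold change of 0.34 did not pass the threshold (edgeR adjusted P = 0.223), and its 95% interval from -0.10 to 0.77 holds both no change and a rise as large as 0.77. The Has3 exons share 352 bases with both annotated Chtf8 genes on the opposite strand. The more abundant of these had 13669 to 16421 counts per sample and a log2 fold change of 0.025 (adjusted P = 0.733). If strand was not used, Chtf8 and Has3 reads in the shared bases cannot be told apart. The level and change of Has3 are then uncertain.

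The balance among the synthases moved with glucose. Per kilobase of annotated exon, Has2 made up 92.4%, 93.4% and 91.6% of the summed level of Has1, Has2 and Has3 in normal glucose, and in high glucose it made up 97.1%, 97.2% and 97.1%. Has1 made up between 6.01% and 7.79% and then between 2.46% and 2.62%, and Has3 at most 0.579% in any sample. The Has2 share was thus 4.62 percentage points higher in high glucose, or 5.71 points when the length of the longest transcript was used. The ratio of Has2 to Has1 went from 13.4 ± 1.96 to 38.2 ± 1.15 (SD, n = 3), 2.86 times as high, and this factor does not depend on the lengths used. The summed level of the 3 synthases went from 18.8 ± 0.591 to 35.2 ± 1.75 CPM per kilobase.

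The depolymerase genes moved little. Cemip (ENSMUSG00000052353, chromosome 7, 83932857 to 84086502, minus strand) encodes a secreted protein needed for hyaluronan breakdown by skin fibroblasts. It had the most counts of this group, 82683 to 117113 per sample. Its values were 672, 826 and 828 CPM in normal glucose and 751, 711 and 739 CPM in high glucose. Normal glucose replicate 1 lay below all high glucose samples and the other 2 normal glucose samples above them. The means were 775 ± 89.7 and 734 ± 20.6 CPM (SD, n = 3), and the log2 fold change of -0.079 did not pass the threshold (95% interval -0.25 to 0.096, edgeR adjusted P = 0.483). Without normal glucose replicate 1, the log2 fold change was -0.19 and passed it (adjusted P = 0.00774), so 1 library decided this call.

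Tmem2 (ENSMUSG00000024754, chromosome 19, 21778342 to 21858360, plus strand) encodes a membrane protein with hyaluronidase activity at the cell surface. It had 73.8, 81.1 and 79.7 CPM in normal glucose and 89.1, 90.8 and 88.5 CPM in high glucose. The groups did not overlap, and the gap was a small part of the level. Tmem2 rose from 78.2 ± 3.86 to 89.5 ± 1.18 CPM (SD, n = 3), or by 0.19 on the log2 scale (95% interval 0.075 to 0.31, edgeR adjusted P = 0.0193). Of the 3212 genes called higher, 2984 rose by more. The call was lost in 6 of 14 alternative settings. It was lost with scaling by library size alone (0.079, adjusted P = 0.274) and without a low-count filter (0.17, adjusted P = 0.0599). It was also lost without normal glucose replicate 3 (0.20, adjusted P = 0.0552) and without high glucose replicate 1, 2 or 3 (0.18, 0.17 and 0.18, adjusted P = 0.0942, 0.0914 and 0.0926). Its direction was the same in each.

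Hyal2 and Hyal1 lie next to each other on the plus strand of chromosome 9. Hyal2 (ENSMUSG00000010047, 107567945 to 107572779) encodes a cell surface hyaluronidase held by a lipid anchor. It ranged from 31.3 to 34.9 CPM in normal glucose and from 34.4 to 35.6 CPM in high glucose, and the groups overlapped. Its log2 fold change of 0.080 did not pass the threshold (95% interval -0.043 to 0.20, edgeR adjusted P = 0.302), and with library size scaling it was -0.034.

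Hyal1 (ENSMUSG00000010051, 107576927 to 107581710) encodes the lysosomal hyaluronidase. It ranged from 17.7 to 21.2 CPM in normal and from 18.8 to 20.1 CPM in high glucose, a log2 difference of -0.036 (95% interval -0.20 to 0.13, adjusted P = 0.748). Its level is uncertain, since 1920 of its exonic bases, or 50.8%, are shared with Naa80 on the same strand and 159 with Hyal3. Naa80 showed a log2 difference of 0.033 (adjusted P = 0.758) and Hyal3 of 0.11 (adjusted P = 0.719). Without normal glucose replicate 3, the Hyal1 value was 0.0066.

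Summed per kilobase, the 4 depolymerase genes stood at 87.8 ± 8.29 CPM per kilobase in normal and at 86.2 ± 1.91 in high glucose (SD, n = 3). Cemip made up 72.0% ± 1.72 and 69.6% ± 0.452 of these sums. The sums of the groups overlapped, while those of the synthases did not.

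All 3 genes for hyaluronan-binding proteins were called, 2 higher and 1 lower, beside 31.4% of all tested genes called in either direction. Vcan (ENSMUSG00000021614, chromosome 13, 89655312 to 89742509, minus strand) encodes versican, a large chondroitin sulfate proteoglycan that aggregates with hyaluronan in provisional matrix. Its values were 508, 661 and 601 CPM in normal glucose and 1059, 1061 and 1081 CPM in high glucose, from between 63576 and 150285 counts. The high glucose samples lay close together and above all normal glucose samples, whose lowest was replicate 1. Vcan rose from 590 ± 77.3 to 1067 ± 11.8 CPM (SD, n = 3), or by 0.85 on the log2 scale (95% interval 0.67 to 1.04, SE 0.084, edgeR adjusted P = 3.33e-05). Of the 3212 genes called higher, 518 rose by more. Without normal glucose replicate 1 the log2 fold change was lower, at 0.74, and still called. The annotation holds 9 Vcan transcripts, which counts per gene do not separate.

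Tnfaip6 (ENSMUSG00000053475, chromosome 2, 52038009 to 52056686, plus strand) encodes TSG-6, a secreted protein induced in inflammation that moves heavy chains of inter-alpha-trypsin inhibitor onto hyaluronan. It had 47.6, 44.1 and 41.8 CPM in normal glucose and 60.1, 62.2 and 63.2 CPM in high glucose. Every high glucose sample was above every normal glucose sample. The mean rose from 44.5 ± 2.92 to 61.8 ± 1.57 CPM (SD, n = 3), or by 0.47 on the log2 scale (95% interval 0.34 to 0.61, SE 0.059, edgeR adjusted P = 1.77e-04).

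Cd44 (ENSMUSG00000005087, chromosome 2, 102811141 to 102901665, minus strand) encodes the main cell surface receptor for hyaluronan. Its values were 343, 352 and 320 CPM in normal glucose and 242, 253 and 247 CPM in high glucose, from between 29440 and 49995 counts. The groups did not overlap. Cd44 fell from 338 ± 16.5 to 248 ± 5.39 CPM (SD, n = 3), a log2 difference of -0.45 (95% interval -0.57 to -0.33, SE 0.054, edgeR adjusted P = 1.30e-04). The annotation holds 9 Cd44 transcripts, and the counts are per gene, so standard and variant forms were not separated. Per kilobase of exon, the ratio of Vcan to Cd44 went from 0.818 ± 0.107 to 2.02 ± 0.0488 (SD, n = 3).

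**Figure D2:**
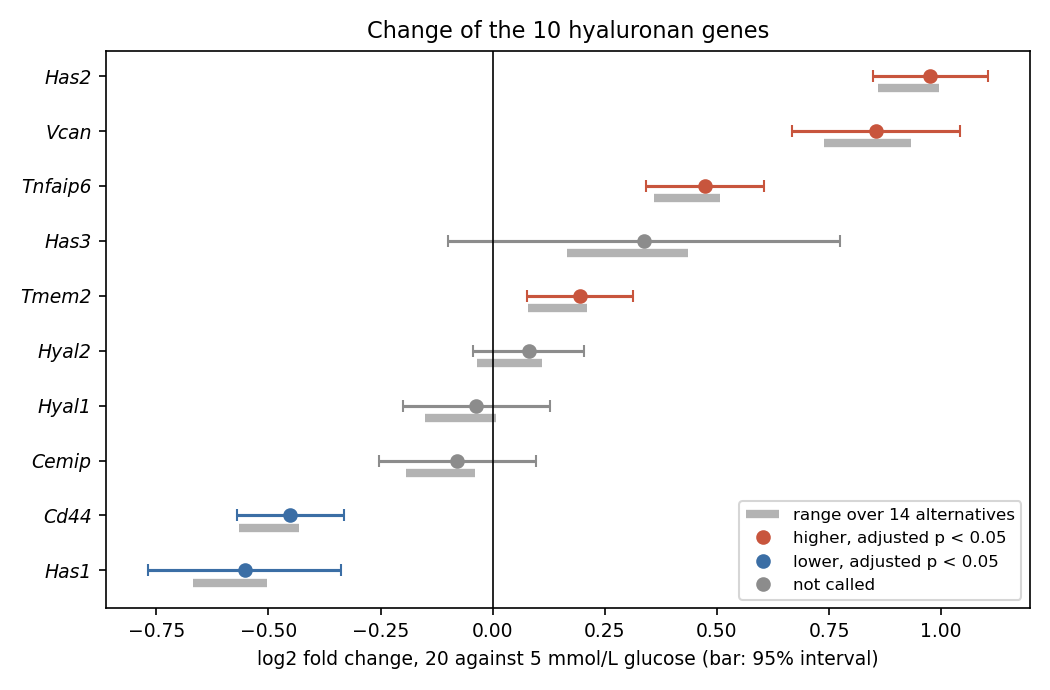
Log2 fold change of high over normal glucose (horizontal axis) for the 10 hyaluronan genes, with its 95% interval as a bar and, in grey below it, the range over 14 alternative settings (red, called higher; blue, called lower; grey, not called). Has2, Vcan, Tnfaip6 and Tmem2 were called higher and Cd44 and Has1 lower, and the grey range crosses 0 for Hyal2 and Hyal1 alone.

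Ordered by level per kilobase of annotated exon, the genes in normal glucose ran from Cemip (63.4 CPM per kilobase) over Cd44 (49.9), Vcan (40.8), Tnfaip6 (26.0), Has2 (17.4), Hyal2 (10.1), Tmem2 (9.18), Hyal1 (5.23) and Has1 (1.31) to Has3 (0.0954). No neighbours in that order overlapped between samples. In high glucose Vcan came first at 73.8 CPM per kilobase, followed by Cemip at 60.0, Cd44 at 36.5, Tnfaip6 at 36.2 and Has2 at 34.2. There the samples of Cd44 and Tnfaip6, of Tnfaip6 and Has2, and of Hyal2 and Tmem2 overlapped, so these neighbours were not separated beyond their spread. Vcan moved from rank 1180 to rank 594 of the 18994 genes by this measure. The order depends on the length used. With the longest transcript in place of all exons, Cemip led in high glucose too, at 103 against 85.9 CPM per kilobase for Vcan, and Tmem2 stood above Hyal2 in both groups.

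**Figure D3:**
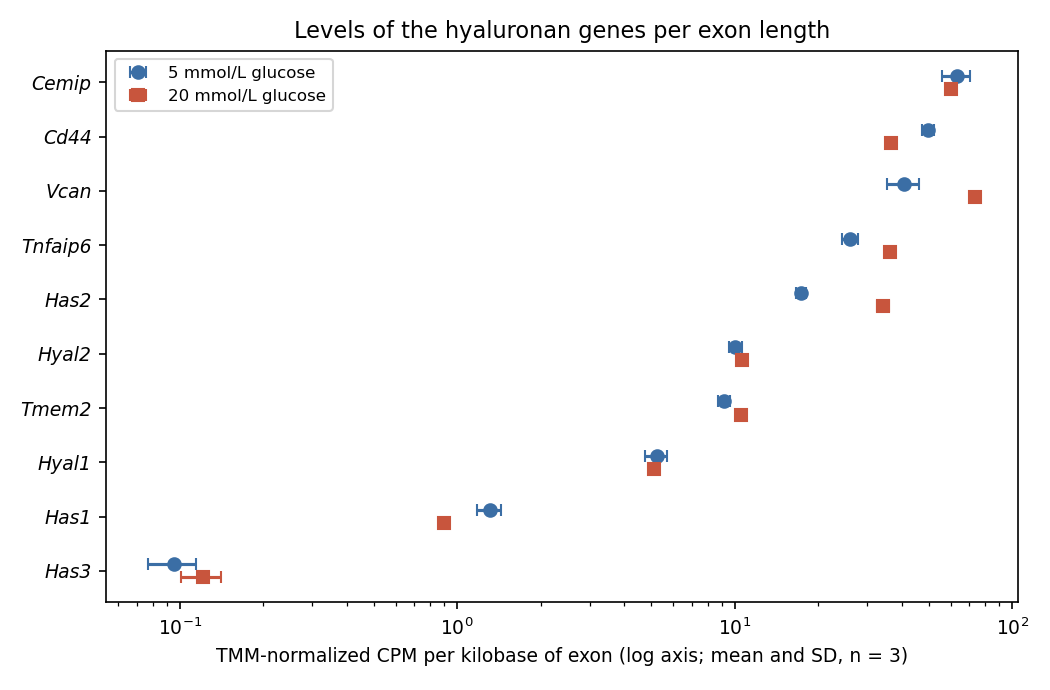
TMM-normalized CPM per kilobase of annotated exon (horizontal log axis) of the 10 hyaluronan genes in normal (circles) and high (squares) glucose, as the mean with the SD of 3 samples. The levels run from 0.0954 for Has3 to 73.8 for Vcan. Of the genes called, the points for Has2, Vcan, Tnfaip6 and, by less, Tmem2 move to the right. Those for Cd44 and Has1 move to the left.

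A list of 48 further genes of hyaluronan metabolism and matrix was read from the same fit. Of these, 36 were tested, 11 rose, 8 fell and 17 did not pass the threshold, with a median log2 fold change of 0.071, against 0.0062 over all tested genes. These calls come to a larger share than the 31.4% over all tested genes. Both the members and this list were chosen with earlier results of the same samples known.

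Of 7 genes for enzymes that make the UDP-sugar precursors, all tested, 1 rose, 2 fell and 4 did not pass the threshold, beside 31.4% called over all tested genes. Gfpt2, an isozyme of the rate-limiting step into hexosamine synthesis, rose from 92.2 ± 4.94 to 120 ± 4.64 CPM (SD, n = 3), or by 0.38 on the log2 scale (edgeR adjusted P = 6.53e-04). Gfpt1, the other isozyme of that step, stood at 116 CPM in both groups (log2 difference -0.00079, adjusted P = 0.995). Ugdh, which oxidizes UDP-glucose to UDP-glucuronic acid, fell from 233 ± 9.65 to 189 ± 8.64 CPM, a log2 difference of -0.30 (adjusted P = 0.00229). Ugp2, which makes UDP-glucose, narrowly missed the threshold at -0.28 on the log2 scale (edgeR adjusted P = 0.0519) and was called lower in 8 of 14 alternative settings. Pgm3, a mutase of N-acetylglucosamine phosphates, showed a log2 difference of -0.24 (adjusted P = 0.00912), and 28.3% of its exonic bases overlap Dop1a on the opposite strand.

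Ptx3 encodes pentraxin 3, which binds TSG-6 and the inter-alpha-trypsin inhibitor chains in hyaluronan matrix. Its values were 162, 139 and 138 CPM in normal and 363, 394 and 381 CPM in high glucose. The high glucose samples were all far above the others. Ptx3 rose from 146 ± 13.7 to 379 ± 15.8 CPM (SD, n = 3), or by 1.37 on the log2 scale (SE 0.071, edgeR adjusted P = 4.01e-07). Itih5, a gene of the inhibitor's heavy chain family, went up from 4.24 ± 0.848 to 7.88 ± 0.269 CPM, or by 0.89 on the log2 scale (adjusted P = 5.44e-04). Of the 7 genes in this group only 3 were tested, and the third, Itih2, showed a log2 difference of -0.046 (adjusted P = 0.767). The share called higher over all tested genes was 16.9%.

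All 6 genes listed for versican-cleaving proteases of the ADAMTS family were tested, and all 6 rose, with a median log2 fold change of 0.74. Adamts15 rose from 75.8 ± 3.71 to 152 ± 5.45 CPM (SD, n = 3), or by 1.003 on the log2 scale (edgeR adjusted P = 7.46e-07). Adamts5 rose from 404 ± 12.9 to 647 ± 13.4 CPM and Adamts4 from 49.5 ± 3.03 to 86.6 ± 2.21 CPM, log2 fold changes of 0.68 and 0.81 (adjusted P = 4.66e-06 and 3.98e-06). Adamts20 had the greatest log2 fold change of the group, 1.44 (adjusted P = 9.20e-04), on 17 to 26 counts in normal glucose and 55 to 75 in high glucose. The remaining pair rose by 0.36 and 0.46. Over all tested genes, 16.9% were called higher.

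Of 7 other receptor genes for hyaluronan, 6 were tested and 2 fell, beside 14.5% of all tested genes called lower. Hmmr, which encodes the receptor for hyaluronan-mediated motility and is also a mitotic spindle gene, stood at 15.7, 18.7 and 18.1 CPM in normal and at 7.63, 7.65 and 7.72 CPM in high glucose. It fell from 17.5 ± 1.61 to 7.67 ± 0.0510 CPM (SD, n = 3), a log2 difference of -1.19 (edgeR adjusted P = 2.01e-06). Layn, which encodes layilin, fell from 78.1 ± 1.77 to 55.1 ± 1.48 CPM, a log2 difference of -0.50 (adjusted P = 3.43e-05). The other 4 tested genes, of which 2 had positive and 2 negative values, had log2 fold changes between -0.68 and 0.14 and did not pass the threshold. Lyve1, the lymphatic receptor, did not pass the filter.

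Among 7 link proteins and other hyalectans, 4 were tested and 2 fell, beside 14.5% called lower over all tested genes. Both were of low abundance. Hapln3 fell from 2.15 ± 0.0963 to 1.27 ± 0.163 CPM (SD, n = 3), a log2 difference of -0.75 (edgeR adjusted P = 0.00120). Hapln4 showed a log2 difference of -0.32 (adjusted P = 0.0436), and this call was lost in 9 of 14 alternative settings, including each fit that left out normal glucose replicate 2 or 3 or any high glucose replicate, where the adjusted P value lay between 0.0643 and 0.129.

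Msn and Ezr, whose products moesin and ezrin link CD44 to actin, fell. Msn had log2 fold change -0.35 (edgeR adjusted P = 3.02e-04) and Ezr -0.27 (adjusted P = 0.00757). Mmp14, a membrane protease that can release CD44 from the cell surface, had 771, 731 and 800 CPM in normal glucose and 906, 877 and 918 CPM in high glucose, so that the groups did not overlap. It rose by 0.23 on the log2 scale (adjusted P = 0.00809). The Mmp14 call was lost without high glucose replicate 1 or 3 (0.21 and 0.20, adjusted P = 0.0565 and 0.0708) and with library size scaling (0.12, adjusted P = 0.102). The other 3 of these 6 genes, Rdx among them, had positive log2 fold changes of at most 0.14 and did not pass the threshold. Nf2, also among them, was called higher without normal glucose replicate 1 (0.14, edgeR adjusted P = 0.0383). The shares called over all tested genes were 16.9% higher and 14.5% lower.

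Of the lysosomal exoglycosidases, Hexa showed a log2 difference of 0.16 (edgeR adjusted P = 0.0393), a call lost in 11 of 14 alternative settings. These include every fit without a single sample except that without normal glucose replicate 1, with adjusted P values between 0.0670 and 0.206. Gusb did not pass the threshold. The share called higher over all tested genes was 16.9%. Of 5 further hyaluronidase genes, Hyal3 was tested and did not pass it, and Hyal4, Hyal5, Hyal6 and Spam1 had 0 counts in every sample, which allows a level of up to 0.0258 CPM per sample (3 counts in the smallest normalized library).

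**Figure D4:**
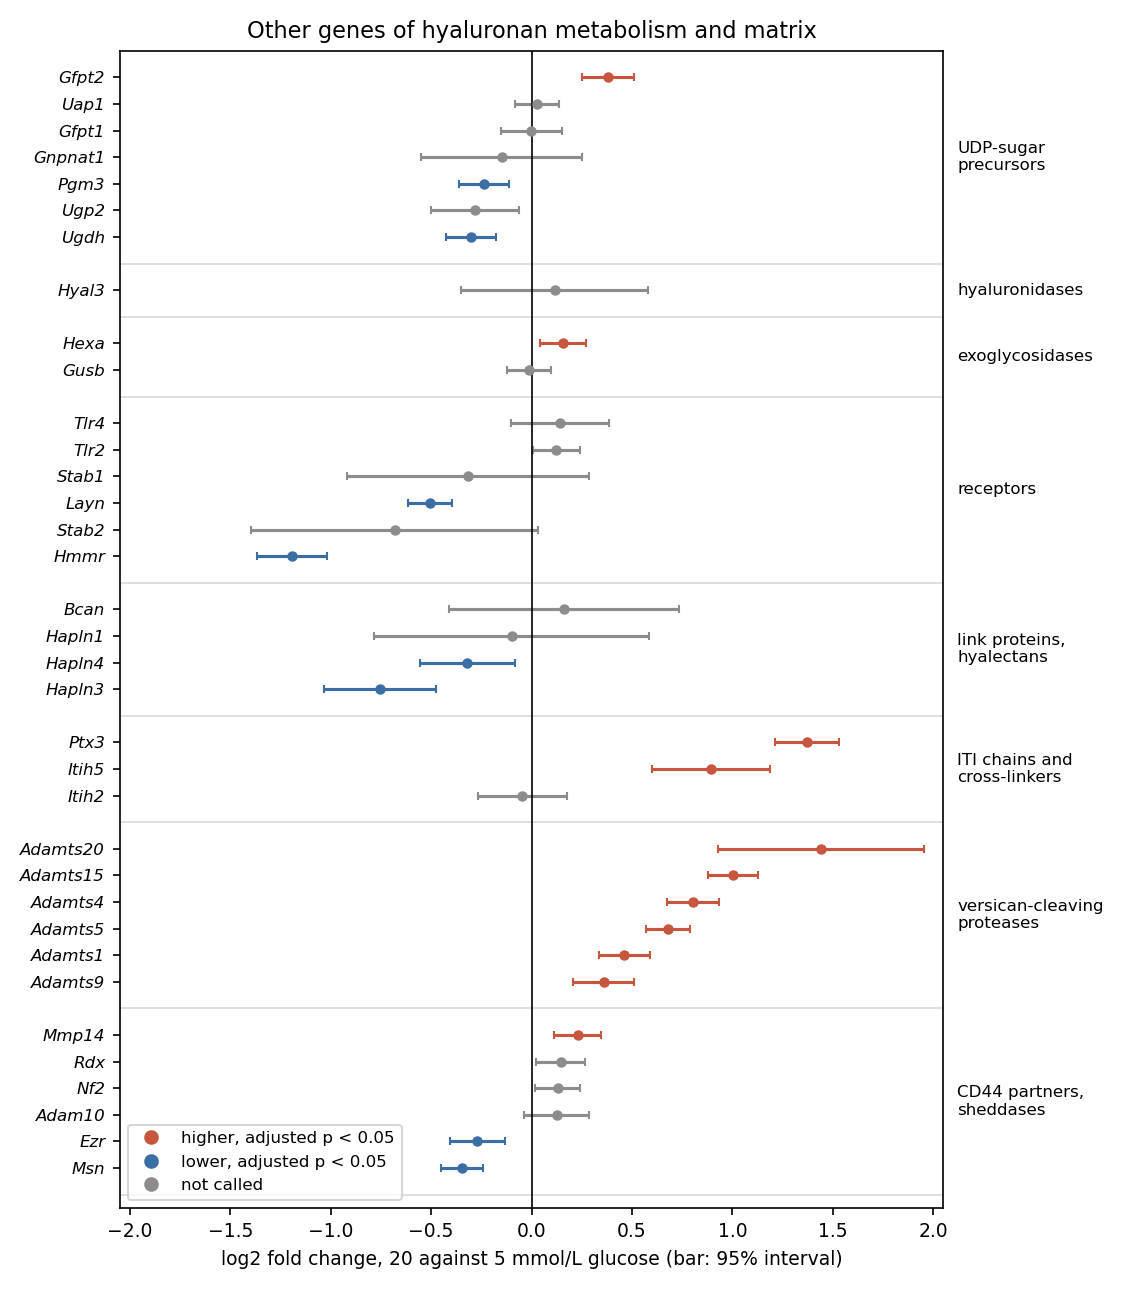
Log2 fold change of high over normal glucose (horizontal axis) with its 95% interval for tested genes of the wider hyaluronan list, grouped by role (red, called higher; blue, called lower; grey, not called). Points for the 6 versican-cleaving proteases all lie above 0, and the 2 receptors called, Hmmr and Layn, lie below 0.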

How the data were processed

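Poly(A) RNA of 6 cultures was sequenced. Trimmomatic (trimming), HISAT2 (alignment to GRCm38, mm10) and StringTie (reads per gene) are named in the methods and labels, and the authors deposited raw counts. Versions, annotation release and strand setting are not given in the sources used here. The labels name TRIzol and DNBSeq, the paper a QIAGEN kit and HiSeq.

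Samples were grouped by their titles. Symbols, positions and lengths came from GENCODE M21 for GRCm38, and 260 of 55487 identifiers had no match (0.00694% of counts). The tests used edgeR 4.0.16 under R 4.3.3, with a filterByExpr minimum of 10 counts and a total of 15, TMM, the quasi-likelihood test and Benjamini-Hochberg adjustment. Standard errors came from the test statistic. Intervals cover the spread between samples and are not adjusted for the number of genes, and the floor of 3 counts covers counting error only. Tables used pandas 2.3.3 and figures matplotlib 3.10.9.

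On simulated counts for 18767 genes, 99% of genes changed by 1 on the log2 scale and 80% of those changed by 0.5 were called, as were 10 of 18567 unchanged genes. Changes were placed only on the better expressed genes, and the simulated spread followed its trend over abundance. These rates therefore do not cover genes as low as Has3 or genes with more spread than that trend.

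Named genes were all 10 members, genes whose exons overlap them, per role up to 4 called genes of the wider list by size of change, while for marker lists the genes at or under the floor and the 2 most abundant could be named. Pecam1 was named for its use in enrichment. The marker genes Lyve1, Tek, Erg, Cdh5, Kdr, Des, Cd68 and Krt5 were named after their values were seen. So were the untested or uncalled genes Itih2, Gusb, Ugp2, Gfpt1, Rdx and Nf2, and the hyaluronidases at 0. A gene of the wider list is counted but not reported here by name or plotted. The members and lists were chosen with earlier results of these data known. Alternatives were DESeq2 1.42.0, the likelihood ratio test, other scalings, no filter, halved counts (in case both reads of a pair were counted), stricter thresholds, a replicate block and each sample left out. Replicates of a group differed by more than sampling noise. The chi-square per degree of freedom lay between 9.76 and 19.5 for pairs of high glucose samples. For normal glucose it was 59.9 for replicates 1 and 2, 40.2 for 1 and 3, and 21.3 for 2 and 3, so the pairs with replicate 1 differed most.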

Additional observations from a re-analysis of the deposited data

How the results depend on the processing

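Has1, Has2, Cd44, Vcan and Tnfaip6 kept their direction and their call in all 14 alternative fits, with log2 fold changes between -0.67 and -0.50, 0.86 and 0.99, -0.57 and -0.43, 0.74 and 0.93, and 0.36 and 0.51. Has3 was not called in any of them (0.17 to 0.43), and the exceptions for Tmem2 and Cemip are given beside those genes. Hyal2 changed sign with library size scaling (-0.034), and Hyal1 without normal glucose replicate 3 (0.0066, in a range from -0.13 with 1 sample left out), neither being called. Library size scaling shifted the median of all genes by -0.115 and gave 4884 lower and 1819 higher genes, in place of 2757 and 3212. Lower genes made up 46.2% of calls under TMM, 56.5% under upper quartile and 72.9% under library size scaling. At the stricter adjusted p of 0.01, 1671 genes were lower and 1946 higher. A minimum absolute log2 fold change of 1 gave 542 lower and 395 higher genes, 0 members lower and 0 higher by edgeR (the most extreme member value in any fit, DESeq2 included, was 0.99), and 1 and 3 genes of the wider list. With 1 sample left out, between 2048 and 3065 genes were lower and between 1988 and 3149 higher, with 3 or 4 members higher and 2 or 3 lower. The higher count fell by over 1.5 times without high glucose replicate 1 (2010) or 3 (1988). It was 3069 without normal glucose replicate 1 and 3149 without normal glucose replicate 2, fits with as few samples. Measured with the longest transcript, the Has2 share was 5.71 percentage points higher in high glucose, and with 1 sample left out between 4.19 and 5.10.

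Replicate numbers 1 to 3 recur in both groups, and no label says that they pair. Across genes, the deviations of a number's 2 samples from their own group mean had correlations of -0.025, 0.0038 and 0.013. With the replicate block, 2418 genes were lower and 2909 higher, 2 members lower and 4 higher, and 7 genes of the wider list lower and 10 higher, with Hexa and Hapln4 losing their calls, as did the markers Erg, Egfl7 and Cd68.

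Apart from the change of lengths, the cause of these differences between settings was not tested. There were 3 samples per group, and Has3 had the fewest counts of the members.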
